A study of Homo sapiens with 6 samples.

Results

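Collagen cross-linking and hydroxylating enzymes were examined through 3 genes, LOXL1, LOXL2 and P4HA2. They are 3 of 1696 genes that could be read from non-coding rows on the opposite strand, in count tables of 62754 gene rows. Each was read from non-coding rows whose exons overlap, by at least 50 bp, only the exons of that gene on the other strand, because its own row held few reads. This is called the opposite-strand reading below, and the own row of each gene is given beside it.

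The study measured RNA in LX-2, a line of human hepatic stellate cells labelled as wild type (WT). Treatment lasted 24 h and was FEBJ (an extract of Brucea javanica fruit, which is a mixture), cynaroside (luteolin carrying a glucose) or DMSO, the solvent control. There were 2 libraries in each of the 3 groups, named here by group and number (FEBJ 1, FEBJ 2). Doses are not in the labels, nor is it stated that the libraries of a group come from separate cultures, so p-values measure only the spread between these libraries, which may be technical.

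Collagen is modified at several steps before and after it leaves the cell. Inside the endoplasmic reticulum, prolyl hydroxylases convert proline to hydroxyproline, which lets the triple helix stay folded at body temperature. P4HA2 encodes an alpha, or catalytic, subunit of collagen prolyl 4-hydroxylase, whose beta subunit is P4HB. Outside the cell, lysyl oxidases are copper-dependent enzymes that oxidise lysines of collagen and elastin, after which the chains cross-link. LOXL1 is known for its part in elastic fibre upkeep, and LOXL2 acts on fibrillar and basement membrane collagen. In the liver, activated stellate cells are the main source of scar collagen, and cross-linked collagen is slow to break down.

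Each gene was read from exactly 1 row, and the 3 rows lay differently against their gene. LOXL1 was read from LOXL1-AS1, whose 9 exons span 4221 bp. Of these, 335 bp lie opposite LOXL1 exons, 259 bp opposite its introns and 3627 bp, or 85.9%, outside the gene. LOXL2 was read from LOXL2-AS1, whose 3 exons span 4798 bp and lie wholly within the gene. Of these, 178 bp lie opposite LOXL2 exons and 4620 bp, or 96.3%, opposite its introns. P4HA2 was read from P4HA2-AS1, whose 3 exons span 839 bp, with 548 bp, or 65.3%, opposite P4HA2 exons and 291 bp outside the gene. The rows thus covered 9.21% of the exon bases of LOXL1, 3.12% of those of LOXL2 and 6.45% of those of P4HA2. The strand setting of the counting step was not given in the sources used here, so RNA of the gene and RNA of its antisense partner cannot be told apart in these values.

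**Figure D1:**
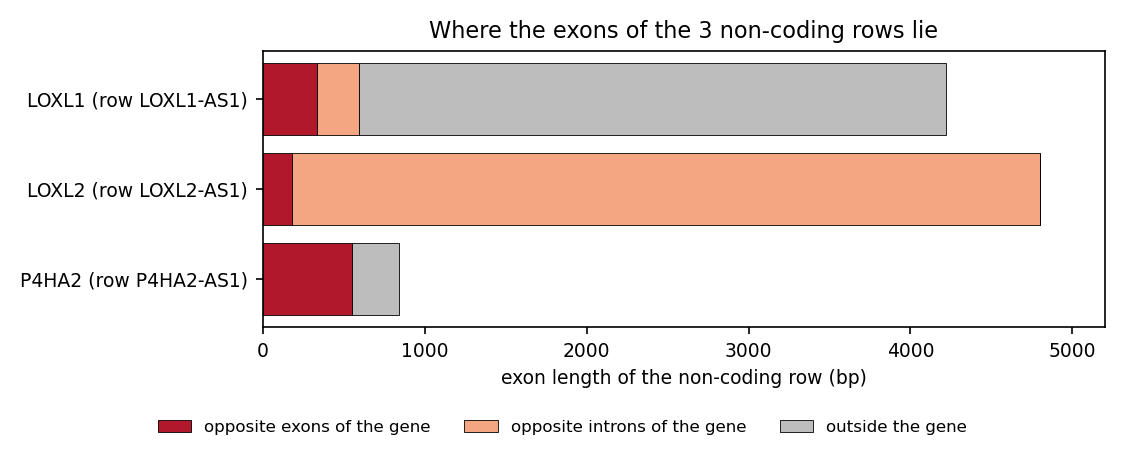
Horizontal bars give the exon length in bp of the non-coding row that stands for each gene, split by colour into bases opposite exons of the gene, opposite its introns and outside it. Bases opposite exons are the largest share in the P4HA2 row, while the LOXL2 row lies mostly opposite introns and the LOXL1 row mostly outside the gene.

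RefSeq promoter windows of 250 bases before and 50 bases after the start were matched for LOXL1 and P4HA2. The 250 bases before the start are shown because exon bases of the row used for LOXL1 lie inside this window. In the LOXL1 window, at chr15:73926212-73926461 on the plus strand of GRCh38.p14, capitals mark the 103 bases that also lie in exons of LOXL1-AS1. In the P4HA2 window, at chr5:132227092-132227341 on the minus strand, no base lies in exons of P4HA2-AS1.
LOXL1: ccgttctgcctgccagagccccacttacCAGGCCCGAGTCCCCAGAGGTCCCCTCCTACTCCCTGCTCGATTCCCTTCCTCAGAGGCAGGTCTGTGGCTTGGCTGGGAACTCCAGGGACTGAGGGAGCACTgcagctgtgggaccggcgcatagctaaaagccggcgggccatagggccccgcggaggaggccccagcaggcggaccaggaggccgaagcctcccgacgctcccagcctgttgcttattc
P4HA2: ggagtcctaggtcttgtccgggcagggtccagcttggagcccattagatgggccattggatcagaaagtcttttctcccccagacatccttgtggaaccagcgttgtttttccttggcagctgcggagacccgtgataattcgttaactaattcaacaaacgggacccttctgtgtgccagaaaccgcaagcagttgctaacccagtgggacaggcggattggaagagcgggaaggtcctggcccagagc
The windows of 300 bases were searched on both strands for ACGTG, the core of the hypoxia response element, and for GGGCGG, a GC box of the SP1 type. TATAAA, the TATA box, and TGANTCA, the AP-1 site, were searched in the same way. Each motif had 0 matches in both windows. Among 35116 RefSeq promoter windows of the same length, 21.4% held ACGTG, 45.0% GGGCGG, 11.5% TATAAA and 7.71% TGANTCA.

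Between 1599000 and 4709317 counts per library fell in gene rows, 5.48 to 6.12% of the table, and 36.8 to 42.9% of these were in the opposite-strand reading. Levels are in CPM, counts scaled to a common library total, by TMM within a reading, so CPM values of the 2 readings are on separate scales. Of 15 stellate cell and myofibroblast markers, 6 had an opposite row, and the summed level of these 6 was 68651 to 68995 CPM in FEBJ libraries, 101788 to 101943 CPM in cynaroside libraries and 128116 to 128583 CPM in DMSO libraries, mostly VIM. The markers did not all move alike. Of 5 tested in this reading, 1 (NGFR) rose and 3 (SPARC, THY1, VIM) fell with FEBJ against DMSO. Of all 1440 genes tested, 35.9% were higher and 34.6% lower. With cynaroside 1 (ACTA2) rose and 2 (SPARC, VIM) fell, where 20.2% of all genes were higher and 21.5% lower. The own rows of the 15 markers, with COL1A2, DES, LRAT and LUM at 0, summed to 71.5 to 78.4 CPM with FEBJ, 156 to 182 CPM with cynaroside and 816 to 818 CPM with DMSO. Hepatocyte marker rows, with ALB and TTR at 0, summed to 12.2 to 13.5 CPM with FEBJ, 0 to 2.02 CPM with cynaroside and 0.486 to 0.707 CPM with DMSO. SERPINA1 gave most of the FEBJ level, with 64 counts over both FEBJ libraries and 3 over both DMSO libraries. Macrophage marker rows, with CD163 and PTPRC at 0, summed to 9.95 to 12.2 CPM with FEBJ, 4.28 to 6.86 CPM with cynaroside and 1.94 to 3.89 CPM with DMSO. Endothelial marker rows, with CDH5, PECAM1 and VWF at 0, summed to 159.7 to 169 CPM with FEBJ, 169 to 177 CPM with cynaroside and 125 to 128 CPM with DMSO. They were nearly all STAB1, whose row lies opposite NT5DC2. The part of these markers in the results on the 3 enzymes was not tested.

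Among the 3 genes, LOXL2 had by far the widest difference between treatments in the opposite-strand reading. The non-coding row opposite LOXL2 held 137 and 196 counts in FEBJ libraries, 1642 and 4850 in cynaroside libraries and 2861 and 3952 in DMSO libraries. After scaling, LOXL2 was at 135 and 138 CPM with FEBJ, 2456 and 2469.6 CPM with cynaroside and 2911 and 2754 CPM with DMSO. Both FEBJ libraries were far below the other 4, and no groups overlapped on this scale. Where 2 libraries are set against 2 that do not differ, they lie apart in this way with a probability of 0.333. Here and below, a lack of overlap is therefore a description and no test.

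LOXL1 had a narrower range. Its opposite row held 121 and 221 counts in FEBJ libraries, 236 and 562 in cynaroside libraries and 450 and 566 in DMSO libraries. These were 119 and 156 CPM with FEBJ, 353 and 286 CPM with cynaroside and 458 and 394 CPM with DMSO. The FEBJ libraries were the lowest, and the cynaroside libraries lay, on this scale, below both DMSO libraries by less than the gap to FEBJ.

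P4HA2, the hydroxylase subunit, had close values within the cynaroside and DMSO pairs. Its opposite row held 294 and 474 counts in FEBJ libraries, 457 and 1349 in cynaroside libraries and 734 and 1068 in DMSO libraries. These were 289 and 334 CPM with FEBJ, 684 and 687 CPM with cynaroside and 747 and 744 CPM with DMSO. Only the FEBJ libraries stood well apart. The groups again did not overlap on this scale, although cynaroside against DMSO was not called, as given below.

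**Figure D2:**
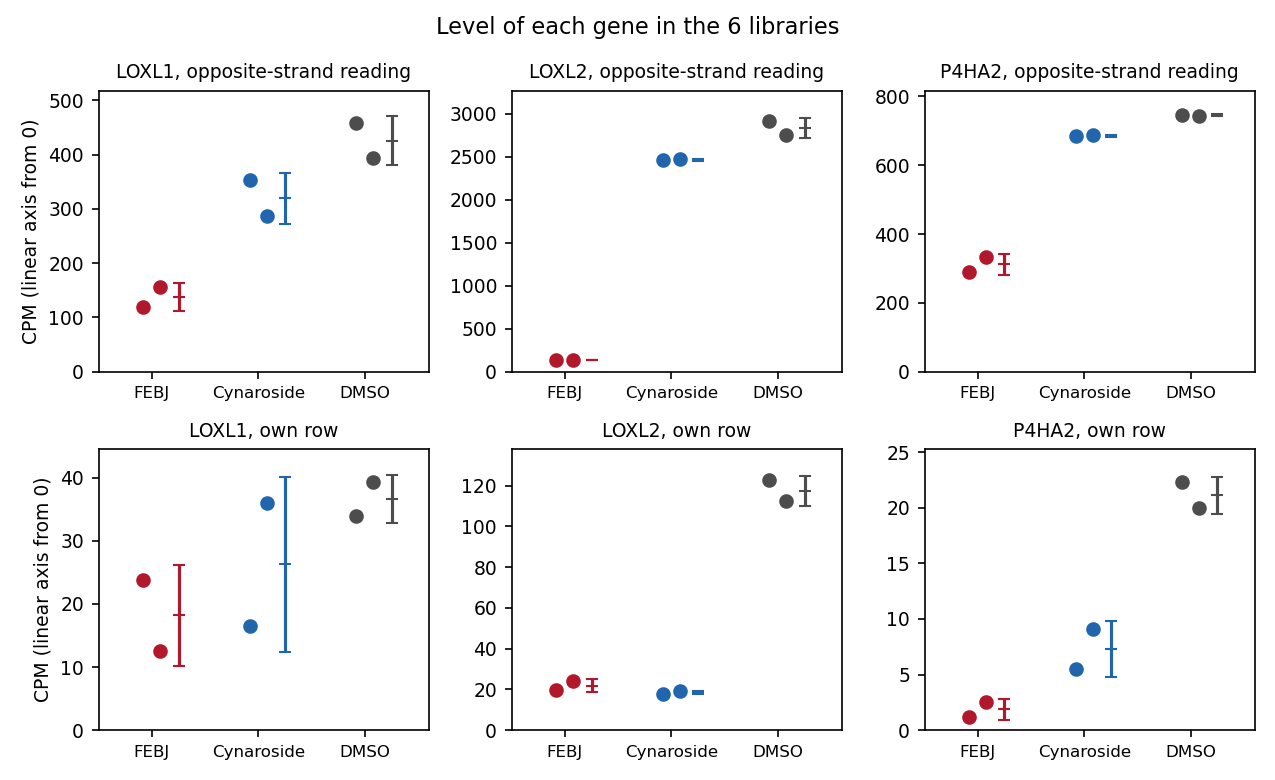
Points are the level of each gene in CPM (linear axes from 0) in each of the 2 libraries of a group, with the mean and SD (n = 2) to the right of each pair. The upper panels give the opposite-strand reading and the lower panels the own row. In the upper panels FEBJ is lowest for all 3 genes, while the own row of LOXL2 is at 19.5 and 24.1 CPM with FEBJ and at 17.8 and 19.2 CPM with cynaroside, both below DMSO.

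The first comparison set FEBJ against DMSO, the question being what the extract changed. All 3 genes fell in the opposite-strand reading, in which 70.5% of the 1440 tested genes were called and 34.6% were lower. LOXL2 averaged 136 ± 2.34 CPM with FEBJ and 2832 ± 111 CPM with DMSO (SD, n = 2 each), a level 20.7-fold lower (log2 fold change -4.37 ± 0.08 SE, 95% interval -4.52 to -4.22). Its Benjamini-Hochberg adjusted p in the edgeR quasi-likelihood test was too small for the software to represent, and it was at most 2.86e-18 in the 16 alternatives tried. LOXL2 had the 2nd lowest log2 fold change of the 1440 genes, whose median was 0.05. In bulk samples, fewer cells of a type and less RNA per cell cannot be told apart.

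LOXL1 averaged 137 ± 25.9 CPM with FEBJ and 426 ± 44.9 CPM with DMSO (SD, n = 2 each), which was 3.06-fold lower. Its log2 fold change was -1.61 ± 0.15 (SE; Benjamini-Hochberg adjusted p = 3.10e-26, edgeR quasi-likelihood test). P4HA2 averaged 312 ± 31.6 CPM with FEBJ and 746 ± 1.84 CPM with DMSO (SD, n = 2 each), which was 2.38-fold lower. Its log2 fold change was -1.25 ± 0.11 (SE; Benjamini-Hochberg adjusted p = 2.10e-30, edgeR quasi-likelihood test). In the order of the 1440 log2 fold changes from the lowest, LOXL1 was at rank 155 and P4HA2 at rank 222, so many genes fell further.

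With cynaroside the same 3 genes moved little against DMSO in the opposite-strand reading, and the direction depended on the scaling. Here 41.7% of the 1440 genes were called, 20.2% as higher and 21.5% as lower. LOXL1 averaged 320 ± 47.3 CPM with cynaroside and 426 ± 44.9 CPM with DMSO (SD, n = 2 each). It fell (log2 fold change -0.44 ± 0.14 SE; Benjamini-Hochberg adjusted p = 0.00559, edgeR quasi-likelihood test), but was at 0.024 when scaled by all deposited gene rows. Its call was also lost without cynaroside 2 (-0.26), without DMSO 1 (-0.33) and in DESeq2 (-0.42). LOXL2 averaged 2463 ± 9.33 CPM with cynaroside and 2832 ± 111 CPM with DMSO (SD, n = 2 each). It fell (-0.20 ± 0.06 SE; Benjamini-Hochberg adjusted p = 0.00158, edgeR quasi-likelihood test), but was higher, at 0.26, when scaled by all deposited gene rows, and it lost its call without DMSO 1 (-0.17).

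P4HA2 averaged 685 ± 2.29 CPM with cynaroside and 746 ± 1.84 CPM with DMSO (SD, n = 2 each), and did not pass the test. Its log2 fold change was -0.12 with a 95% interval of -0.32 to 0.08 (Benjamini-Hochberg adjusted p = 0.341, edgeR quasi-likelihood test), and it was higher, at 0.34, and called when scaled by all deposited gene rows. That scaling placed the median of all 1440 genes at 0.45, against -0.01 with the scaling used here, and made 737 of 837 called genes higher, against 291 of 601. In both scalings the log2 fold changes of the 3 genes were below the median of all genes.

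**Figure D3:**
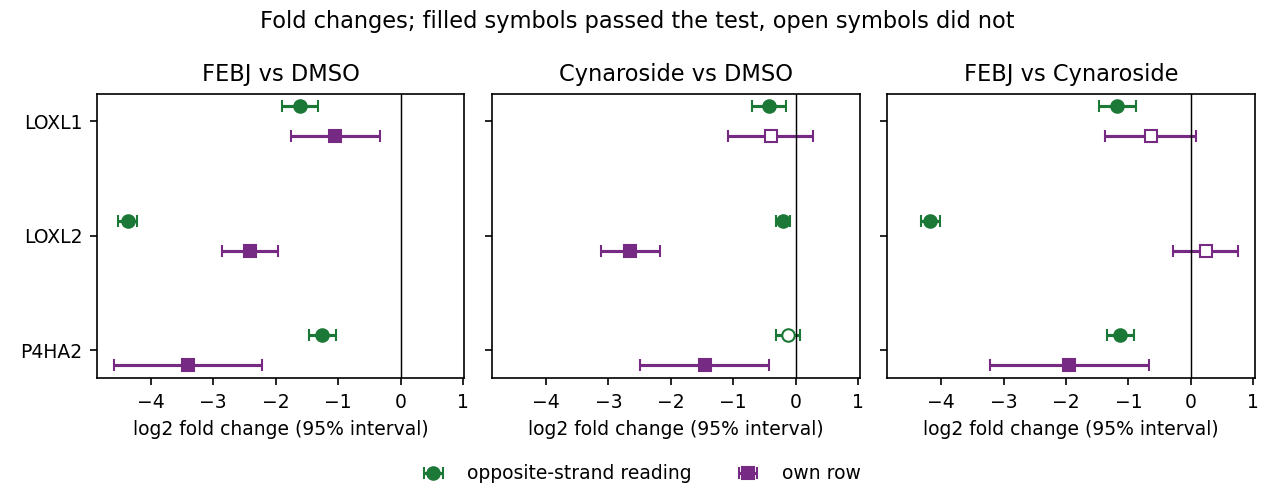
Log2 fold changes (x axes) with 95% intervals are given for each gene in the opposite-strand reading (circles) and in the own row (squares), with filled symbols for those that passed the test. With FEBJ all 6 values against DMSO are below 0, from -4.37 to -1.04, while with cynaroside the opposite-strand values are -0.44 to -0.12 and turn to 0.024 to 0.34 when scaled by all deposited gene rows.

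Set directly against cynaroside, FEBJ gave lower values of all 3 genes in the opposite-strand reading. The comparison shares its FEBJ libraries with the one against DMSO, and 69.5% of the 1440 genes were called, 35.3% as higher and 34.2% as lower. LOXL2 was 18.0-fold lower with FEBJ than with cynaroside (-4.17 ± 0.08 SE). LOXL1 was 2.26-fold lower (-1.18 ± 0.15) and P4HA2 2.19-fold lower (-1.13 ± 0.11). All 3 passed the edgeR quasi-likelihood test after Benjamini-Hochberg adjustment, and their values ranged over all alternatives from -4.42 to -3.77 for LOXL2, from -1.43 to -1.03 for LOXL1 and from -1.38 to -1.05 for P4HA2.

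Ratios between the genes within a library do not depend on the scaling. In the opposite-strand reading, LOXL2 was lower relative to the other 2 genes in both FEBJ libraries than in the other 4. The own rows did not show this relative to either gene. P4HA2 fell further there with FEBJ against DMSO (-3.41) than LOXL2 did (-2.41). The LOXL1 own row fell less against DMSO (-1.04) than that of LOXL2. Between FEBJ and cynaroside, however, the own row was at 0.23 for LOXL2 and -0.64 for LOXL1, and neither was called. Rows differ in length, so a ratio is compared only between libraries. The LOXL2 to LOXL1 count ratio was 1.13 and 0.887 in FEBJ libraries, 6.96 and 8.63 in cynaroside libraries and 6.36 and 6.98 in DMSO libraries. The log2 ratio was thus 2.73 lower with FEBJ than with DMSO, or 6.65-fold, and the FEBJ libraries did not overlap the others. Cynaroside and DMSO libraries overlapped, with a log2 difference of 0.22.

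The LOXL2 to P4HA2 count ratio was 0.466 and 0.414 in FEBJ libraries, 3.59 and 3.60 in cynaroside libraries and 3.90 and 3.70 in DMSO libraries. It was 8.65-fold lower with FEBJ than with DMSO and 1.06-fold lower with cynaroside than with DMSO. The LOXL1 to P4HA2 count ratio stayed within a narrow band, at 0.412 and 0.466 with FEBJ, 0.516 and 0.417 with cynaroside and 0.613 and 0.530 with DMSO. Here FEBJ and cynaroside libraries overlapped, and both groups were below DMSO. Over the 9 comparisons of ratios, the exact two-sided permutation p was 0.333 or 0.667 (0.429 or 0.667 after Benjamini-Hochberg adjustment), and 0.333 is the smallest that 2 libraries against 2 allow.

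**Figure D4:**
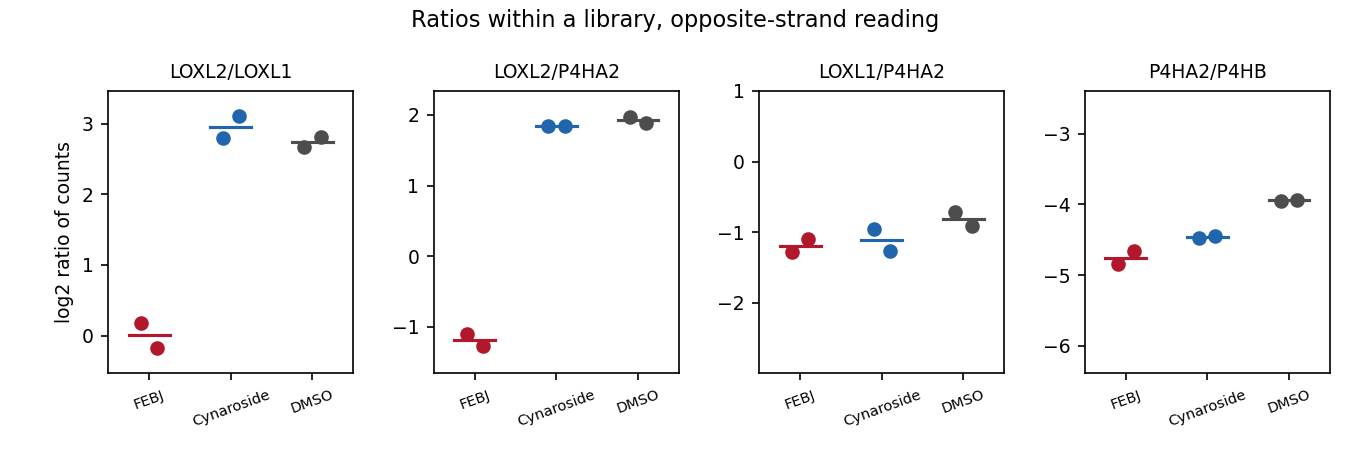
Points are log2 ratios of counts between pairs of genes in the opposite-strand reading in each library, with the group mean as a line, and every panel spans 4 log2 units. LOXL2 relative to LOXL1 or P4HA2 is lowest in the FEBJ libraries, while LOXL1 relative to P4HA2 differs little between groups.

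The own rows held fewer reads than the opposite rows, and the order of the groups differed for LOXL2. The LOXL2 own row held 49 and 85 counts in FEBJ libraries, 26 and 76 in cynaroside libraries and 347 and 462 in DMSO libraries. Both treatments were below DMSO and did not overlap it. All 3 own rows were tested among 12012 deposited rows, of which 50.8% were called for FEBJ against DMSO, 24.8% as lower, and 45.4% for cynaroside against DMSO, 21.1% as lower. The LOXL2 own row averaged 21.8 ± 3.26 CPM with FEBJ and 117 ± 7.30 CPM with DMSO (SD, n = 2 each; log2 fold change -2.41 ± 0.22 SE; Benjamini-Hochberg adjusted p = 1.64e-10, edgeR quasi-likelihood test). With cynaroside it averaged 18.5 ± 0.932 CPM, and it fell against DMSO by 2.65 ± 0.23 on the log2 scale (Benjamini-Hochberg adjusted p = 2.46e-10, edgeR quasi-likelihood test). Between FEBJ and cynaroside it was not called, at 0.23 with a 95% interval of -0.29 to 0.76, in a comparison that called 41.9% of rows, 21.5% as higher and 20.4% as lower.

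The 2 readings of LOXL2 therefore differed most between FEBJ and cynaroside, at 0.23 in the own row and -4.17 in the opposite-strand reading. Against DMSO they differed more under cynaroside, at -2.65 in the own row and -0.20 in the opposite-strand reading, than under FEBJ (-2.41 and -4.37). The LOXL2 own row held 40.2% as many counts as the opposite row with FEBJ, 1.57% with cynaroside and 11.9% with DMSO. Over 1030 other genes with at least 1000 counts in the pair of rows, the median of this share was 5.06 and 5.36% in FEBJ libraries, 2.69 and 2.78% in cynaroside libraries and 7.31 and 7.24% in DMSO libraries. The share was thus lowest with cynaroside for LOXL2 and for the median of the other genes. It was highest with FEBJ for LOXL2, but with DMSO for that median. For P4HA2 it was 1.56% with FEBJ, 2.44% with cynaroside and 8.05% with DMSO. For LOXL1 it was 30.4% with FEBJ, 20.9% with cynaroside and 25.4% with DMSO. The part of this share in the own-row result of LOXL2 was not tested. Among 3892 protein-coding rows with no opposite exon, 39.1% were lower with cynaroside than with DMSO, and their median log2 fold change was -1.41. With FEBJ the same rows had a median of -1.03.

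The P4HA2 own row held 3 and 9 counts in FEBJ libraries, 8 and 36 in cynaroside libraries and 63 and 82 in DMSO libraries. It averaged 1.87 ± 0.961 CPM with FEBJ, 7.28 ± 2.54 CPM with cynaroside and 21.1 ± 1.65 CPM with DMSO (SD, n = 2 each), and the groups did not overlap. It fell with FEBJ (-3.41 ± 0.58 SE; Benjamini-Hochberg adjusted p = 1.60e-05, edgeR quasi-likelihood test), and by 4.12 without FEBJ 2. It fell with cynaroside (-1.46 ± 0.50 SE; Benjamini-Hochberg adjusted p = 0.0191, edgeR quasi-likelihood test), a call lost without cynaroside 1 (-1.19), DMSO 1 (-1.40) or DMSO 2 (-1.55). Between FEBJ and cynaroside it fell by 1.95, a call lost without FEBJ 1 (-1.57) or cynaroside 2 (-1.47), and was at -2.65 without FEBJ 2.

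The LOXL1 own row held 60 and 44 counts in FEBJ libraries, 24 and 143 in cynaroside libraries and 96 and 162 in DMSO libraries. The cynaroside libraries, at 16.5 and 36.0 CPM, overlapped both the FEBJ and the DMSO libraries. It fell with FEBJ against DMSO (-1.04 ± 0.34 SE; Benjamini-Hochberg adjusted p = 0.0132, edgeR quasi-likelihood test), a call lost without FEBJ 2 (-0.65) or DMSO 2 (-0.94). It was not called for cynaroside against DMSO (-0.40), nor for FEBJ against cynaroside (-0.64). Without cynaroside 2 these were -1.16, which was called, and 0.12. The second was also called without FEBJ 1 (-1.15) or cynaroside 1 (-1.08).

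The other enzymes and chaperones of collagen processing were taken from a list of 34 genes, 31 without the 3 described above. In the opposite-strand reading 4 of the 31 were tested, and with FEBJ 0 rose and 3 fell against DMSO. Of all 1440 genes, 35.9% were higher and 34.6% lower with FEBJ. P4HB, the beta subunit that pairs with P4HA2, averaged 8365 ± 81.0 CPM with FEBJ and 11432 ± 126 CPM with DMSO (SD, n = 2 each; log2 fold change -0.45 ± 0.03 SE). CRTAP, a partner in the complex that hydroxylates proline at the 3 position, fell by 1.05 ± 0.16, and FKBP14, a prolyl isomerase of the endoplasmic reticulum, fell by 1.83 ± 0.27. LOXL4, a further lysyl oxidase, had few counts, at 11.1 ± 7.28 CPM with FEBJ and 9.72 ± 7.84 CPM with DMSO (SD, n = 2 each), and was not called.

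With cynaroside against DMSO, 2 of these 4 genes rose and 0 fell, where 20.2% of all 1440 genes were higher and 21.5% lower. P4HB averaged 15071 ± 206 CPM with cynaroside and 11432 ± 126 CPM with DMSO (SD, n = 2 each) and rose by 0.40 ± 0.03 on the log2 scale (SE). CRTAP rose by 0.85 ± 0.14, and FKBP14 was not called (0.07 ± 0.24). The direction of P4HB and CRTAP was the same when scaled by all deposited gene rows. The own rows did not show these rises. The own row of P4HB averaged 31.4 ± 3.69 CPM with cynaroside and 106 ± 6.45 CPM with DMSO (SD, n = 2 each), and it fell (-1.73 ± 0.20 SE; Benjamini-Hochberg adjusted p = 7.10e-08, edgeR quasi-likelihood test). The own row of CRTAP was not called (-1.28 ± 0.55), but was lower and called in 7 alternatives. In the opposite-strand reading, counts of P4HA2 relative to P4HB, a ratio chosen after its values were seen, were 0.0348 and 0.0396 in FEBJ libraries, 0.0449 and 0.0460 in cynaroside libraries and 0.0648 and 0.0656 in DMSO libraries. Both treatments lay below DMSO without overlap.

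In the rows as deposited, 18 of the 31 genes were tested. With FEBJ against DMSO 3 rose, 11 fell and 4 were not called, with a median log2 fold change of -1.34 where the median of all 12012 rows was -0.06. Of all rows, 26.0% were higher and 24.8% lower with FEBJ. With cynaroside against DMSO 3 rose, 6 fell and 9 were not called, with a median of -1.25 where that of all rows was 0.02. Of all rows, 24.3% were higher and 21.1% lower with cynaroside. The 3892 protein-coding rows with no opposite exon, given above, had medians of -1.03 with FEBJ and -1.41 with cynaroside, and 34.6% and 39.1% of them were lower. Of all 21 listed genes tested, 13 have an annotated exon of another gene opposite to them (50 bp or more), where reads of either gene cannot be told apart. Among these 13, 3 rose and 8 fell with FEBJ (median -1.04), and 3 rose and 4 fell with cynaroside (median -0.64). Among the 8 without such an exon, 0 rose and 6 fell with FEBJ (median -3.08), and 0 rose and 4 fell with cynaroside (median -2.24).

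Among the hydroxylases, P4HA3, a further alpha subunit, averaged 351 ± 1.59 CPM with FEBJ and 535 ± 4.80 CPM with DMSO (SD, n = 2 each) and fell by 0.61 ± 0.08 on the log2 scale. It rose by 0.62 ± 0.08 with cynaroside, and its row lies opposite PPME1. PLOD1, a lysyl hydroxylase, held 3 counts over both FEBJ libraries and 176 over both DMSO libraries, a ratio of 51.0-fold (95% exact interval 17.2 to 249.8, counting error only). It also fell with cynaroside (-2.50 ± 0.52). COLGALT1, which adds galactose to hydroxylysine, fell by 3.12 ± 0.61 with FEBJ and was not called with cynaroside (-1.22 ± 0.53), except without FEBJ 2 (-1.24) and in 5 other alternatives. PLOD3, a lysyl hydroxylase that also transfers sugars, was called with neither (-0.58 ± 0.31 with FEBJ and -0.64 ± 0.31 with cynaroside), and its row lies opposite ZNHIT1. It was called as lower in 2 alternatives with FEBJ (-0.95 and -0.80) and in 5 with cynaroside (-1.14 to -0.79).

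The rows of LOX and LOXL3, further lysyl oxidases, were higher with FEBJ. The LOX row averaged 92.8 ± 10.3 CPM with FEBJ, 52.9 ± 10.6 CPM with cynaroside and 29.6 ± 4.68 CPM with DMSO (SD, n = 2 each). It rose with FEBJ (1.67 ± 0.21) and with cynaroside (0.81 ± 0.22, a call lost without DMSO 2, at 0.65, and, at 0.35, when scaled by the opposite-strand reading), but lies opposite SRFBP1. The LOXL3 row averaged 451 ± 25.3 CPM with FEBJ and 223 ± 0.561 CPM with DMSO (SD, n = 2 each) and rose by 1.02 ± 0.10, but lies opposite DOK1 and HTRA2. TGM2, a transglutaminase that cross-links matrix proteins by another reaction, was called with neither treatment (0.12 ± 0.58 with FEBJ and 0.21 ± 0.60 with cynaroside), and both values turn negative, to -0.10 and -0.24, when scaled by the opposite-strand reading. Its row lies opposite RPRD1B.

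**Figure D5:**
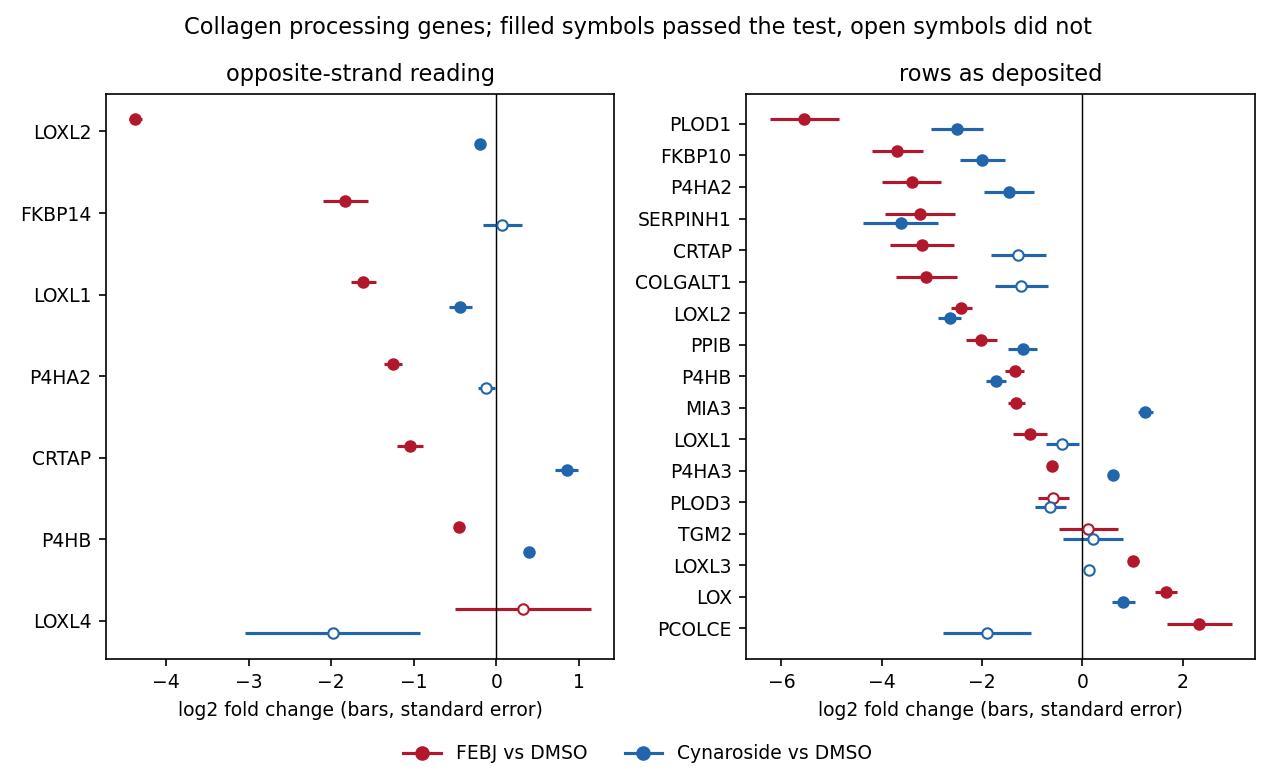
Log2 fold changes against DMSO (x axes, with standard errors) are given for the listed collagen processing genes in the opposite-strand reading (left) and in the rows as deposited with a mean of at least 5 CPM (right), for FEBJ (red) and cynaroside (blue). LOXL2 is lowest at left with FEBJ (-4.37), P4HB and CRTAP lie on opposite sides of 0 with the 2 treatments in the opposite-strand reading, and LOX, LOXL3 and PCOLCE lie above 0 with FEBJ. At left, LOXL1, LOXL2 and P4HA2 with cynaroside move above 0 when scaled by all deposited gene rows, and at right LOXL3 and TGM2 with cynaroside and TGM2 with FEBJ move below 0 when scaled by the opposite-strand reading.

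Of 13 listed genes of collagen chaperones, export and propeptide processing, 4 were tested as deposited rows. With FEBJ 1 rose and 3 fell, where 26.0% of all rows were higher and 24.8% lower. With cynaroside 1 rose and 2 fell, where 24.3% of all rows were higher and 21.1% lower. FKBP10, a prolyl isomerase that acts on procollagen, fell by 3.69 ± 0.51 with FEBJ and by 2.00 ± 0.45 with cynaroside. PPIB, listed with the hydroxylases as a prolyl isomerase in the complex with CRTAP, fell by 2.02 ± 0.30 with FEBJ (-2.73 without FEBJ 2) and by 1.19 ± 0.29 with cynaroside, and its row lies opposite SNX22. SERPINH1, the collagen chaperone HSP47, fell with both (-3.24 ± 0.70 and -3.62 ± 0.75), with 0 counts in 1 library of each treatment. Without FEBJ 1 it was at -2.37 and without FEBJ 2 at -9.25, without cynaroside 1 at -3.03 and without cynaroside 2 at -9.19, and the calls were lost in DESeq2. MIA3, which loads procollagen into transport carriers, fell by 1.32 ± 0.17 with FEBJ and rose by 1.25 ± 0.15 with cynaroside, and a non-coding row lies opposite it. PCOLCE, an enhancer of propeptide removal, rose with FEBJ (2.33 ± 0.65), a call lost without DMSO 1 (1.92) and larger without DMSO 2 (2.96), and its row lies opposite PCOLCE-AS1.

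The substrates of these enzymes were also lower with FEBJ. Of 14 listed collagens and other matrix substrates, 11 were tested as deposited rows, and 0 rose and 11 fell with FEBJ against DMSO (median -4.41). Of all rows 24.8% were lower, and of protein-coding rows with no opposite exon 34.6%. COL1A1, the alpha 1 chain of type I collagen, averaged 2.61 ± 0.317 CPM with FEBJ, 29.7 ± 14.2 CPM with cynaroside and 293 ± 23.7 CPM with DMSO (SD, n = 2 each). With cynaroside 0 rose and 9 fell (median -2.28), where 21.1% of all rows and 39.1% of protein-coding rows with no opposite exon were lower. COL6A2, a chain of type VI collagen, was not called (0.01 ± 0.24). COL4A2, a basement membrane chain and the one substrate read from the opposite strand, averaged 335 ± 17.4 CPM with FEBJ, 1391 ± 83.1 CPM with cynaroside and 1385 ± 6.93 CPM with DMSO (SD, n = 2 each). It fell with FEBJ (-2.04 ± 0.08) and was not called with cynaroside, at -0.00 ± 0.07. The own row of COL4A2 fell with cynaroside, at 40.9 ± 25.9 CPM, against 140.1 ± 12.2 CPM with DMSO (SD, n = 2 each; log2 fold change -1.65 ± 0.24 SE; Benjamini-Hochberg adjusted p = 2.47e-06, edgeR quasi-likelihood test), so the 2 readings differed.

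Genes whose pattern over the 6 libraries was most like that of each enzyme were sought among 892 genes of the opposite-strand reading with a mean of at least 100 CPM. Likeness was the root mean square difference of log2(CPM + 1) values, each centred on the mean of its group means, and it is a description without a test. For LOXL2 the nearest gene was SPARC, a collagen-binding matrix protein, at a difference of 0.25 log2 units, followed by CACNG4 (0.53) and FLNC (0.54). SPARC averaged 34.8 ± 4.64 CPM with FEBJ, 429 ± 5.63 CPM with cynaroside and 592 ± 10.8 CPM with DMSO (SD, n = 2 each). LOXL1 was nearest to BCAR3 (0.12), RAI14 (0.13) and AKT1 (0.14). P4HA2 was nearest to TMPO (0.05), MAP3K20 (0.09) and CSNK2A3 (0.10). LOXL1 and P4HA2 thus had closer neighbours than LOXL2, whose log2 fold change with FEBJ was the 2nd lowest of 1440. Few genes lie near so low a value, so this order is no separate result.

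Only rows with at least 50 bp of overlap entered the opposite-strand reading. The smallest overlap among the 3 genes was 178 bp, for LOXL2. Just under the minimum, a non-coding row overlaps exons of P4HA1, a further alpha subunit, by 47 bp. It held 114 and 85.9 CPM in FEBJ libraries, 305 and 388 CPM in cynaroside libraries and 134 and 141 CPM in DMSO libraries, on the scale of the opposite-strand reading. It was highest with cynaroside, which P4HA2 was not.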

How the data were processed

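Total RNA of LX-2 cells was sequenced in 6 libraries, 2 per group. Per the submitters' processing notes, CASAVA 1.7, HISAT2 (version not given), HTSeq 0.12.4 and DESeq2 1.38.0 were used with hg19, and raw counts were deposited by the authors. The library kit, strand setting and annotation release are not given in the sources used here. Gene rows held 1599000 to 4709317 counts per library. The summary rows stayed out of library sizes and tests, and the one for reads outside every feature held 87.4 to 88.3% of all counts.

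Exon overlaps came from GENCODE release 29 on GRCh38, which held 58261 of the 62754 rows, matched by identifier. Gene symbols matched 62700 rows. Since the builds differ, no coordinates of the deposited rows are given. Non-coding rows (1825) with exons opposite, by at least 50 bp, to exons of only 1 protein-coding gene, and with at least as many counts as its own row, were summed per gene (1696 genes).

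Both tables were filtered with filterByExpr (1440 and 12012 tested), scaled with TMM and fitted in edgeR 4.0.16 (R 4.3.3) with 3 group means over all 6 libraries. The quasi-likelihood test was adjusted by Benjamini-Hochberg over all tested rows. A gene rose or fell at an adjusted p at or under 0.05. Intervals are 95%. The fit was tested on simulated data for FEBJ against DMSO, with the same spread set for all genes, which these data need not follow. Of simulated log2 changes of 1, it recovered 94.9% in the opposite-strand reading and 48.9% in the deposited rows. Of log2 changes of 2, it recovered 98.0% and 86.7%. Deposited rows that were not called may thus hold missed changes. The members and lists were chosen with earlier results of these data known.

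Named were the 3 genes and listed collagen processing genes tested in the opposite-strand reading or with deposited rows of at least 5 CPM on average. From the context lists, genes tested in the opposite-strand reading and at most 4 rows with the highest means were eligible. For likeness, the 3 nearest genes were named. Alternatives were other scalings (RLE, upper quartile, all deposited gene rows), no filter or 1 CPM in 2 libraries, DESeq2 1.42.0, a replicate block, only the 4 libraries compared and leaving out each library. For the opposite-strand reading they were also an overlap of 200 bp, no count condition and the own row added. Scaling the deposited rows by the opposite-strand reading was added after seeing the data.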

Additional observations from a re-analysis of the deposited data

How the results depend on the processing

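With FEBJ, against DMSO and against cynaroside, LOXL1, LOXL2 and P4HA2 kept direction and call in the opposite-strand reading under every alternative that gave a value (17 for LOXL1 and P4HA2, 16 for LOXL2, which has no value at an overlap of 200 bp). Against DMSO the log2 fold changes ranged from -4.45 to -4.06 for LOXL2, -1.83 to -1.40 for LOXL1 and -1.36 to -1.04 for P4HA2. Counts of called genes stayed within 1.5 times in every alternative. For cynaroside against DMSO, scaling by all deposited gene rows reversed LOXL1 (0.024, adjusted p = 0.905), LOXL2 (0.26, 0.00143) and P4HA2 (0.34, 0.00418). LOXL1 was not called in DESeq2 (-0.42, 0.0695), and over the alternatives its adjusted p was 0.00108 to 0.905, that of LOXL2 1.64e-06 to 0.0579 and that of P4HA2 0.00418 to 0.541. Leaving out each library gave -0.55 to -0.26 for LOXL1, -0.24 to -0.17 for LOXL2 and -0.12 to -0.09 for P4HA2. The LOXL1 to P4HA2 log2 ratio, FEBJ minus cynaroside, reversed with the own row added (0.12) and ranged from -0.24 to 0.072 without each library. Adjusted p-values are Benjamini-Hochberg values of the edgeR quasi-likelihood test or DESeq2, and the cause was not tested.

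The following values were not called as reported and changed sign in an alternative, where some were called. With FEBJ against DMSO, LOXL4 ranged from -0.63 to 1.41 without each library, and TGM2 was -0.012 with upper-quartile scaling, -0.10 with the TMM factors of the opposite-strand reading (opposite-reading factors) and -0.072 to 0.27 without each library. With cynaroside against DMSO, FKBP14 ranged from -0.12 to 0.23 without each library, LOXL3 from -0.041 to 0.27, and TGM2 was -0.24 with opposite-reading factors. LOXL3 was -0.021 with RLE, -0.020 in DESeq2, -0.070 with upper-quartile scaling, -0.034 in the fit of 4 libraries and -0.33 with opposite-reading factors (called, adjusted p = 0.00362; its 0.27, without cynaroside 1, was also called, 0.0237). With FEBJ against cynaroside, ranges without each library were -1.15 (called, 0.0255) to 0.12 for the LOXL1 own row, -0.33 to 0.56 for PLOD3, -5.63 to 5.98 for SERPINH1 (both called, 0.0316 and 0.0438) and -0.36 to 0.072 for TGM2, which was 0.14 with opposite-reading factors.

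With deposited rows scaled by those same factors, 1430 of 5229 called deposited rows were higher for cynaroside against DMSO, with upper-quartile scaling 2260 of 5275, against 2917 of 5454 in the values reported; for FEBJ against cynaroside they were 3274 of 5266 against 2579 of 5034. The replicate numbers did not pair the libraries: deviations of same-numbered libraries correlated at -0.091 to 0.040. With the replicate block, 1006, 583 and 998 genes of the opposite-strand reading were called for FEBJ against DMSO, cynaroside against DMSO and FEBJ against cynaroside, against 1015, 601 and 1001. With 2 libraries per group and 24 to 162 counts in the LOXL1 own row, small differences there were not detectable at this depth.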

Other observations

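Among 12 listed targets of the hypoxia response, VEGFA was tested in the opposite-strand reading. It averaged 39.2 ± 5.35 CPM with FEBJ, 44.4 ± 3.51 CPM with cynaroside and 42.9 ± 7.38 CPM with DMSO (SD, n = 2 each) and was called with neither treatment (-0.13 ± 0.35 and 0.05 ± 0.35 SE). Of 8 targets tested as deposited rows, 1 rose and 2 fell with FEBJ against DMSO, and 2 rose and 3 fell with cynaroside against DMSO. Of all 12012 deposited rows, 50.8% were called with FEBJ and 45.4% with cynaroside. LDHA, lactate dehydrogenase A, fell to 5.65 ± 1.24 CPM with FEBJ and 8.38 ± 3.12 CPM with cynaroside, against 134 ± 4.06 CPM with DMSO (SD, n = 2 each). ANKRD37, whose row lies opposite UFSP2, averaged 60.9 ± 2.74 CPM with FEBJ, 73.1 ± 4.34 CPM with cynaroside and 36.9 ± 3.78 CPM with DMSO (SD, n = 2 each) and rose with both (edgeR quasi-likelihood test).

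Of the bile duct epithelium markers, KRT7 moved with the treatments in the opposite-strand reading. Of 5 listed, 2 had an opposite row, and EPCAM, KRT19 and SOX9 were not read there. The summed level of the 2 was 877 to 1040 CPM in FEBJ libraries, 56.0 to 92.7 CPM in cynaroside libraries and 155 to 167 CPM in DMSO libraries, nearly all from KRT7. The own rows, with EPCAM and KRT19 at 0, summed to 6.52 to 7.16 CPM with FEBJ, 1.01 to 2.06 CPM with cynaroside and 6.08 to 9.90 CPM with DMSO. Of 2 own rows tested, 0 rose and 0 fell with either treatment against DMSO. The part of these markers in the results on LOXL1, LOXL2 and P4HA2 was not tested.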
